A study of Mus musculus with 33 samples.

Results

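The genes described here are the carriers that move amino acids, and the transmitters made from them, across cell and organelle membranes. They were taken by name from the array's platform annotation: every gene with a symbol of the Slc1a, Slc3a, Slc6a, Slc7a, Slc36a, Slc38a or Slc43a series and a probe set that carries only that symbol, without Slc6a5. The rule found 59 genes among the 14857 genes with such a probe set, namely 6 in the Slc1 family, 2 in Slc3, 17 in Slc6, 16 in Slc7, 4 in Slc36, 11 in Slc38 and 3 in Slc43. One of the 59, Slc7a6os, shares the name pattern but lies on the opposite strand beside Slc7a6 and encodes no transporter. The rule used no measured value. Slc1a2, the main glutamate carrier of forebrain astrocytes, shares its probe set with a second symbol and was not used.

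Each array held RNA of a single untreated wild-type mouse of the FVB strain, from tissue enriched for one brainstem nucleus, the medial nucleus of the trapezoid body. This nucleus (MNTB) is a relay of the sound localization pathway. The ages were postnatal days 0 (P0), 1, 2, 3, 4, 6 and 14 (P14), with 4 mice at P4, 4 at P14 and 5 at each other age, 33 in all. The tissue was taken from live slices with a needle, which enriches for the nucleus and does not isolate a cell type. Mice are named here by age and litter number.

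In glycinergic and glutamatergic nuclei such as the MNTB, carriers of the Slc1 and Slc6 families end transmission by taking glutamate, GABA and glycine back into glia and nerve endings. Astrocytes turn the glutamate they take up into glutamine, which leaves through some Slc38 carriers and enters neurons through others to be made into transmitter again. The Slc7 light chains pair with a heavy chain, mostly an Slc3 protein, and exchange one amino acid for another. Slc7 carriers, not all of them light chains, supply neutral and cationic amino acids for growth.

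The values are log2 intensities, so they compare a gene with itself across mice, and the level of one gene says nothing of another's. Of the 59 genes, 29 had a mean level under 4.98, the median of all probe set means, where changes on arrays are compressed. Array medians ran between 4.83 and 5.12, mice of the same age correlated at 0.9671 to 0.9904 over all probe sets, and 0 pairs of arrays were identical. One array stood apart. The P6 mouse of litter 4 had the lowest of 33 array quality weights, 0.271, and 26 of the 30 brighter transporter genes lay below their P6 mean in it, with a median deviation of -0.43. The P2 and P1 mice of litter 4 came next, with weights of 0.432 and 0.45, and 26 and 25 of these 30 genes were below their age mean. Results that change without the P6 mouse of litter 4 are given with and without it.

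Levels of 12 genes of MNTB principal cells and glycinergic neurons were examined in the labelled tissue. They cannot test the label, since no other tissue was measured and the list was chosen with earlier results known. All 12 were measured. Averaged over all ages, 11 lay above the median level, but at P0 the means of Calb1 (4.76) and Glra1 (4.23) were under 4.98. The mean over the list was 6.66 at P0 (mice 6.52 to 6.88), 7.64 at P6 (mice 7.32 to 7.78) and 7.89 at P14 (mice 7.59 to 8.06). Members of the list moved both ways: 5 were higher and 2 lower at P6 than at P0 (median 0.19), and 6 were higher and 5 lower at P14 than at P6 (median 0.16). The rise of the mean between P0 and P6 came mostly from the calcium-binding proteins Calb1 and Pvalb, higher by 5.24 and 4.86, while Foxp1 and En1 fell. At P14 against P6, Foxp1, Kcnc1, Gad1, Gad2 and Esrrg fell. On the whole array, 6.42% of probe sets were higher and 7.95% lower at P6 than at P0 (median -0.01). At P14 against P6 the shares were 15.7% and 5.14% (median 0.05). In bulk tissue, fewer cells of a type and less RNA per cell cannot be told apart.

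Levels differed over the 7 ages for 22 of the 59 transporter genes (37.3%) by limma's F test at an adjusted p under 0.05, beside 28.5% of all 16686 probe sets. Of those 22, 15 had their highest age mean at P14, 2 at P0, 2 at P1, and 1 each at P3, P4 and P6. Among the 30 genes above the median level, 16 passed, beside 41.1% of all probe sets above it, and among the 29 under it 6 passed, beside 16%. The share of transporter genes that varied with age was therefore near that of the array, and the results below are about which carriers moved and when.

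**Figure D1:**
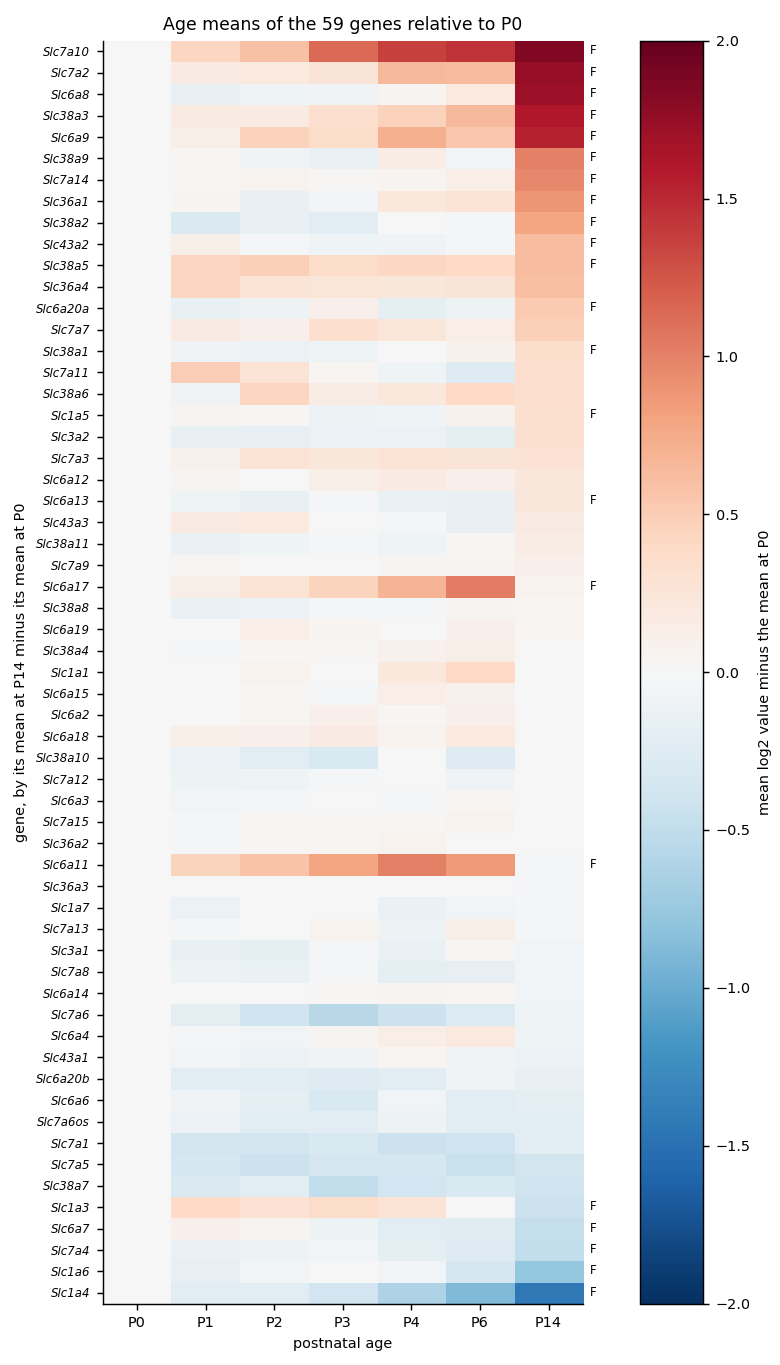
Mean log2 value of each of the 59 genes at each age minus its mean at P0, with genes ordered by the P14 difference and F marking those that passed the F test over ages. Red cells gather in the P14 column, while Slc6a11 and Slc6a17 are red at P3 to P6 and pale at P14, and Slc1a4 is blue from P4 on.

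Between P6 and P0, 8 of the 59 genes passed the test (13.6%), beside 14.4% of all probe sets. Of these, 6 were higher at P6 (all probe sets 6.42%) and 2 were lower (7.95%). The median difference, P6 minus P0, was 0.04 on the log2 scale for the transporter genes and -0.01 for all probe sets. Those called higher were Slc7a10, Slc6a17, Slc6a11, Slc38a3, Slc7a2 and Slc6a9, and those called lower were Slc1a4 and Slc7a5. The mice of both ages did not overlap at all in 3 genes higher at P6 and in 2 lower ones, beside 3.99% and 5.57% of probe sets. The other 51 genes had differences between -0.40 and 0.40.

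Between P14 and P6, 15 genes passed (25.4%), beside 20.9% of all probe sets. Of these, 12 were higher at P14 (all probe sets 15.7%) and 3 were lower (5.14%). The median difference, P14 minus P6, was 0.03 for the transporter genes and 0.05 for all probe sets. At P14, 14 genes lay wholly above the P6 mice and 2 wholly below, beside 13.9% and 4.47% of probe sets. The balance of direction over the whole array depended on scaling: 75.4% of all called probe sets were higher at P14 as deposited, 51.2% after quantile normalization and 57.8% after centring each array on its median. Without the P6 mouse of litter 4, 11 transporter genes were higher and 6 lower. Slc1a1, Slc1a3 and Slc1a6 were gained as lower, and Slc7a10 was lost. The share of all probe sets called in that fit is not given here, so these counts show nothing particular to the transporter genes.

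No transporter gene passed between neighbouring ages within the first week. In the steps P1 against P0, P2 against P1, P3 against P2, P4 against P3 and P6 against P4, limma called 0 of the 59, beside 0.204%, 0.018%, 0.024%, 0.012% and 0.479% of all probe sets. At an unadjusted p under 0.05 the counts were 5, 0, 1, 3 and 2 genes, beside 8.76%, 3.45%, 3.52%, 2.89% and 5.93%.

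**Figure D2:**
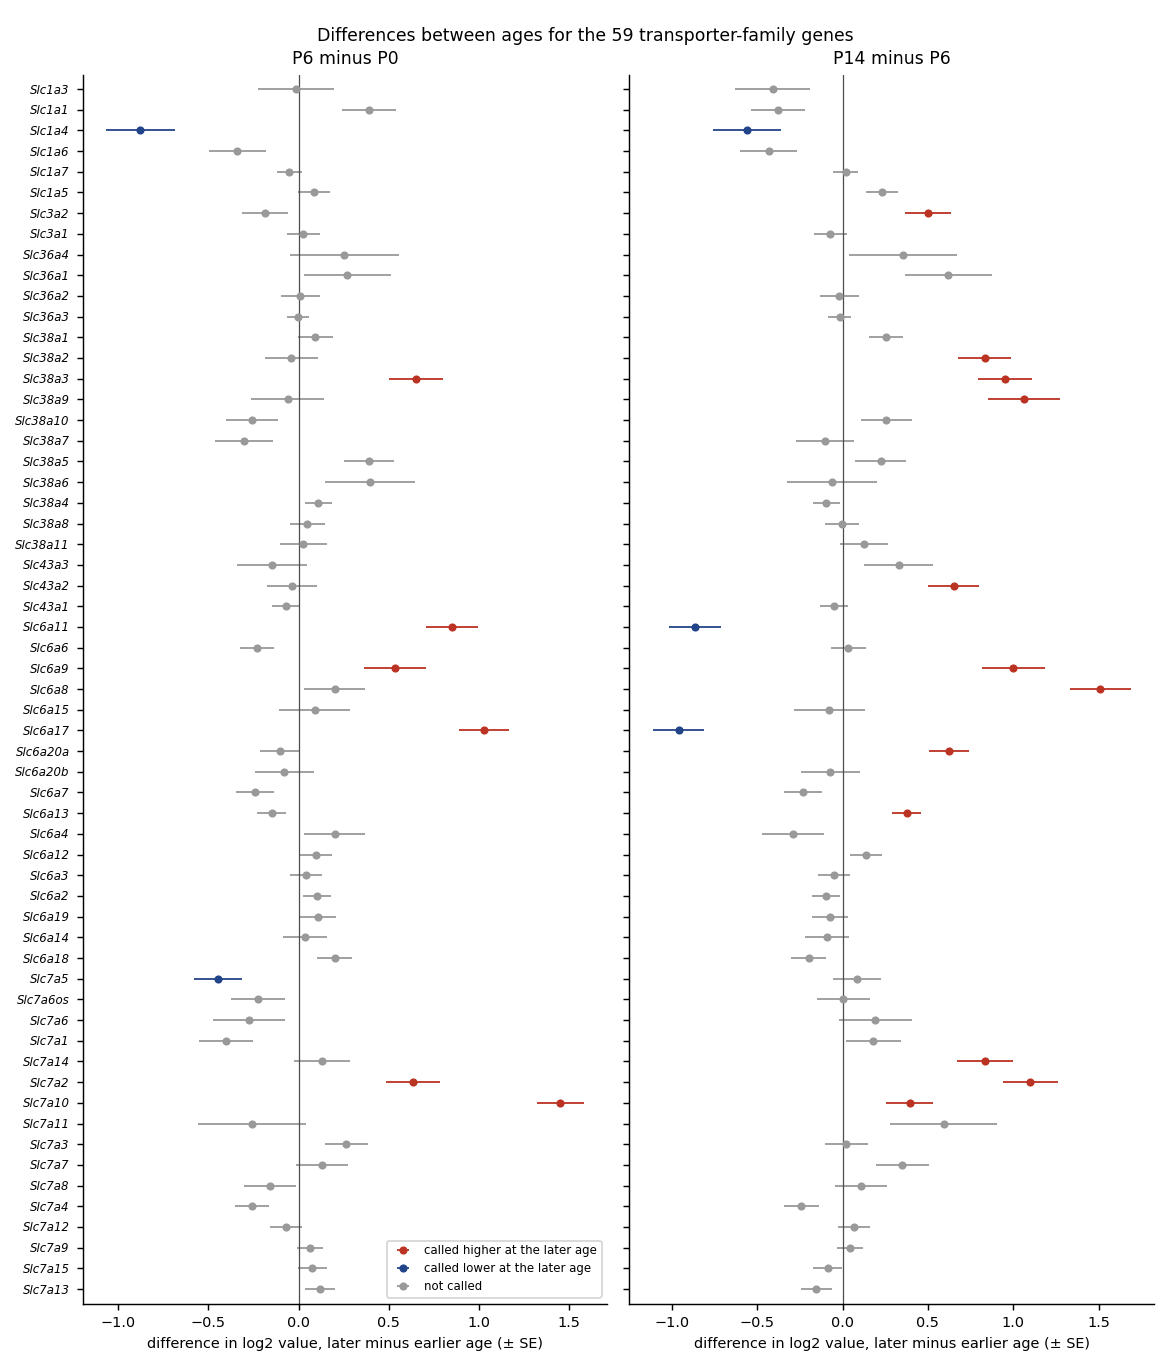
Difference in log2 value for each of the 59 genes, P6 minus P0 on the left and P14 minus P6 on the right, with bars for the standard error and colour for adjusted p under 0.05. Slc7a10 stands farthest to the right in the first panel at 1.45, and Slc6a8 in the second at 1.51.

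Slc7a10 encodes an exchanger of small neutral amino acids, glycine and D-serine among them. Its log2 values were 6.59, 6.54, 6.76, 6.70 and 6.83 in the 5 P6 mice, against 5.27, 4.99, 5.61, 4.99 and 5.30 in the 5 P0 mice. Every P6 mouse was above every P0 mouse, by 1.45 ± 0.13 on the log2 scale (SE), 2.73-fold, with a limma adjusted p of 8.4e-10. The rise ran through the week, with age means of 5.23, 5.66, 5.82, 6.37, 6.61 and 6.68 at P0, P1, P2, P3, P4 and P6, so that 78.2% of it was present at P3. The P14 mice had 7.17, 7.07, 7.20 and 6.86, all above the P6 mice. That second difference was small, 0.39 ± 0.14, at an adjusted p of 0.0392. It passed no longer after quantile normalization (0.584), after centring (0.145) or without the P6 mouse of litter 4 (0.0591), nor without P6 litter 1 (0.0746), P6 litter 2 (0.089), P14 litter 1 (0.107), P14 litter 2 (0.0661) or P14 litter 3 (0.116).

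Slc6a11 and Slc6a17 were high at the end of the first week and low on both sides of it. Slc6a11 encodes a GABA carrier found mainly on astrocytes, and Slc6a17 a neutral amino acid carrier of synaptic vesicles. Slc6a11 had 10.13, 10.05, 9.87, 9.45 and 9.86 in P6 mice, against 8.97, 8.94, 9.11, 9.03 and 9.06 in P0 mice. All P6 mice exceeded all P0 mice, by 0.85 ± 0.14 (1.8-fold, adjusted p 6.57e-05). Its age means peaked at P4, at 10.03. At P14 the values were 9.12, 9.14, 9.07 and 8.70, below every P6 mouse, and the difference was -0.87 ± 0.15 (1.82-fold lower, adjusted p 6.69e-05). P14 minus P0 was -0.02 on the log2 scale. At P14 against P6, 9 of 15 astrocyte marker genes were higher (all probe sets 15.7%). Another 2, Aldh1l1 and Fabp7, were lower (all probe sets 5.14%), by 0.47 and 0.87. The part of astrocytes in the results for Slc6a11 was not tested.

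Slc6a17 had 6.33, 6.34, 6.40, 5.67 and 6.25 in P6 mice, against 5.21, 4.87, 5.44, 5.15 and 5.19 in P0 mice. The lowest P6 mouse, that of litter 4, was still above the highest P0 mouse, and the rise was 1.03 ± 0.14 (2.04-fold, adjusted p 2.13e-06). The age means climbed at each step, 5.17, 5.28, 5.45, 5.61, 5.85 and 6.20 at P0, P1, P2, P3, P4 and P6. The P14 mice had 5.23, 5.45, 5.26 and 4.99, below all P6 mice, a difference of -0.96 ± 0.15 (1.95-fold lower, adjusted p 9.14e-06). At P14 the level was 0.06 above that at P0. Among the enzymes of GABA and glutamate, Gad2, which makes GABA, was lower at P14 than at P6 by 1.24 ± 0.20 (log2 5.46 at P14, 6.70 at P6, adjusted p 2.36e-05), and Gad1 also fell.

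Slc1a4, an exchanger of alanine, serine, cysteine and threonine, fell through both intervals. Its values were 6.74, 6.81, 6.49, 6.13 and 6.64 in P6 mice, against 7.72, 7.09, 7.68, 6.93 and 7.77 in P0 mice, with no overlap. P6 minus P0 was -0.88 ± 0.19 (1.83-fold lower, adjusted p 0.0013). The P14 mice had 5.92, 6.22, 5.97 and 5.90. That was -0.56 ± 0.20 from P6 with 1 mouse overlapping, at an adjusted p of 0.0447, which was lost when any of 7 of the 9 mice was left out (P6 litter 1, 2, 3 or 5, or P14 litter 1, 3 or 5) and then lay between 0.0593 and 0.104. The P14 against P6 call held in 10 of 17 alternative settings, quantile normalization and centring among them. Limma's adjusted p went down to 0.000589 there. Over the whole span, P14 minus P0, the difference was -1.44, which was not tested.

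The starts of these genes are shown because they stand for the 4 time courses: Slc7a10 up in the first week, Slc38a9 up by P14 (values below), Slc1a4 down throughout, and Slc6a11 up and then down. Each run is the 250 bases before the RefSeq transcription start on build GRCm38.p6, read 5′ to 3′ on the gene's strand, with capitals marking GC boxes (GGGCGG or CCGCCC on the other strand) and CCAAT boxes (CCAAT or ATTGG on the other strand). The windows are chr7:35186135-35186384 on the plus strand, chr13:112660516-112660765 on the plus strand, chr11:20332714-20332963 on the minus strand and chr6:114130991-114131240 on the plus strand.
Slc7a10: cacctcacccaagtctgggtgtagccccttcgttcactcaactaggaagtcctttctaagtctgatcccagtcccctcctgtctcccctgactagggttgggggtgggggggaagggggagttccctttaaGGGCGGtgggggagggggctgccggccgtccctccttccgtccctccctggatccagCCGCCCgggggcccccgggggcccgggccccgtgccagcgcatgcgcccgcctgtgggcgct
Slc38a9: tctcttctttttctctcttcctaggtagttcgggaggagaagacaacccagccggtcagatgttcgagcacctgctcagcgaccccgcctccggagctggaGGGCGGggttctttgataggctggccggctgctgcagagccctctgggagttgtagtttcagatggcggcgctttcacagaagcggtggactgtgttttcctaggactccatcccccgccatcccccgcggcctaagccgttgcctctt
Slc1a4: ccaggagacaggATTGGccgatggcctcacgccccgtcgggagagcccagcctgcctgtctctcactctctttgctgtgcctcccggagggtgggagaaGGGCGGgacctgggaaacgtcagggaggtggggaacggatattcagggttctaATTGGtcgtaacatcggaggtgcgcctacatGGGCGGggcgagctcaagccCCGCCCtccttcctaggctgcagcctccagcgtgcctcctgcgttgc
Slc6a11: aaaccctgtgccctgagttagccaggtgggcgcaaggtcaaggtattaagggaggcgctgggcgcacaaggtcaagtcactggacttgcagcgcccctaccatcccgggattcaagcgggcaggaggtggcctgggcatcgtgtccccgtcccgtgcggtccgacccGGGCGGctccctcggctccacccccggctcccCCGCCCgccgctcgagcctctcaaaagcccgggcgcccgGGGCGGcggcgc
Of 6 motifs searched on both strands, with no overlap between matches of different motifs, these windows held GC boxes and, in Slc1a4 alone of the 4, CCAAT boxes. RefSeq windows were found for 42 of the 59 genes, 62 windows in all. The GC box occurred in 51.6% of them and in 32.7% of 32851 windows of all genes, and CCAAT in 25.8% and 33.8%. The other 4 were TATAAA (9.68% of member windows, 12.4% of all), CACGTG (12.9%, 6.02%), TGACGTCA (1.61%, 1.55%) and TGATGNAA (4.84%, 3.45%). A match describes letters and no binding. The median number of CpG pairs was 14.5 in windows of the called genes, 6 in those of the other transporter genes and 6 over all genes; it was 14 in transporter genes above the median level and 6 in those under it.

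**Figure D3:**
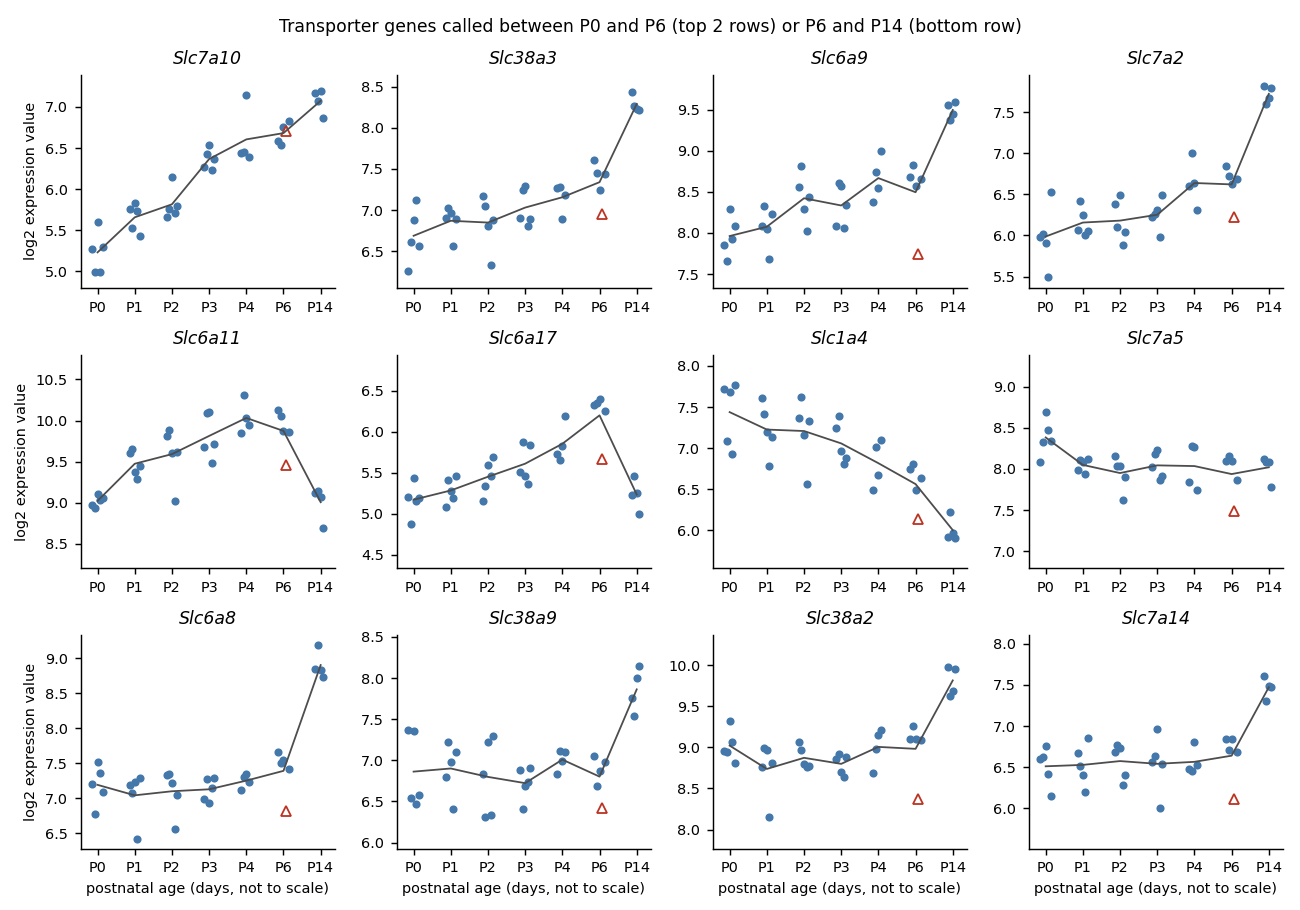
Log2 value in each mouse at each age for the 8 genes called between P6 and P0 and the 4 genes with the largest further rises to P14, with a line through the age means and an open triangle for the P6 mouse of litter 4. Slc6a11 and Slc6a17 form an arch, Slc1a4 slopes down, and Slc6a8, Slc38a9, Slc38a2 and Slc7a14 are flat until P6.

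Glycine is the main fast inhibitory transmitter of this nucleus, and Slc6a9 encodes the glycine carrier of astrocytes. Slc6a9 had 9.56, 9.38, 9.45 and 9.60 in P14 mice, against 8.68, 8.82, 8.57, 7.75 and 8.65 in P6 mice. The P14 mice were all higher, by 1.00 ± 0.18 (2-fold, adjusted p 0.000109). The P0 mice had 7.86, 7.66, 8.30, 7.92 and 8.08, and P6 minus P0 was 0.53 ± 0.17 with overlap (adjusted p 0.0341). This earlier call was not held without P0 litter 1 (0.075), 2 (0.102) or 4 (0.0626), nor without P6 litter 1 (0.0816), 2 (0.102), 3 (0.0709) or 5 (0.0801). It held in 10 of 18 alternative settings, the fit without the P6 mouse of litter 4 among them. Over all settings the difference ran from 0.45 to 0.77, with limma's adjusted p between 0.000199 and 0.126. Of the 12 measured genes of glycine, serine and creatine metabolism, 4 were higher at P6 than at P0 and 0 lower. They were Srr, which makes D-serine, and the creatine genes Gatm, Gamt and Ckmt1. At P14 against P6, the same 3 creatine genes were higher and Gldc, of the glycine cleavage system, was lower (-0.43). Shmt1, Shmt2 and Gcsh, also of glycine metabolism, passed in neither comparison. The list's medians were 0.34 and 0.26, beside -0.01 and 0.05 for all probe sets. Of all probe sets, 6.42% were higher and 7.95% lower at P6 than at P0, and 15.7% and 5.14% at P14 than at P6.

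Creatine is imported through Slc6a8, and it gave the largest difference of the 59 genes between P14 and P6. Its values were 8.85, 9.20, 8.83 and 8.73 in P14 mice, against 7.67, 7.51, 7.54, 6.82 and 7.42 in P6 mice. The ages were well apart, by 1.51 ± 0.18 (2.85-fold, adjusted p 1.04e-07). P0 mice had 7.21, 6.77, 7.52, 7.37 and 7.10, and P6 minus P0, 0.20, did not pass. The creatine-making enzymes rose too: Gatm by 1.33 ± 0.18 at P6 against P0 and by 1.25 ± 0.19 at P14 against P6, Gamt by 0.96 ± 0.23 and 1.75 ± 0.24. The kinase Ckmt1 rose by 0.36 ± 0.09 and 0.42 ± 0.10.

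Glutamine and other small neutral amino acids cross membranes through the Slc38 carriers, of which 11 were measured. Slc38a3, the glutamine carrier of astrocytes, rose in both intervals. It had 8.44, 8.27, 8.23 and 8.22 in P14 mice, against 7.61, 7.44, 7.24, 6.95 and 7.44 in P6 mice, 0.95 ± 0.16 higher (1.93-fold, adjusted p 3.69e-05). P0 mice had 6.26, 6.61, 6.88, 7.13 and 6.56, and the P6 level was 0.65 ± 0.15 above them (1.57-fold, adjusted p 0.00267), with overlap at the edge. The P14 mean was 3.04-fold the P0 mean, a pair of ages for which no test was run. Of 15 astrocyte marker genes, 10 were higher (all probe sets 6.42%) and 0 lower (7.95%) at P6 than at P0. At P14 against P6, 9 were higher (15.7%) and 2 lower (5.14%). The part of the astrocyte genes in the results for Slc6a9 and Slc38a3 was not tested.

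Slc38a2, a glutamine importer, had 9.98, 9.63, 9.69 and 9.96 in P14 mice, against 9.10, 9.26, 9.10, 8.37 and 9.09 in P6 mice. All P14 mice were higher, by 0.83 ± 0.16 (1.78-fold, adjusted p 0.000166). P0 mice had 8.96, 8.95, 9.32, 9.07 and 8.82, close to P6 (difference -0.04). Slc38a1, its neighbour in the genome and the glutamine importer of many neurons, had 9.88, 9.87, 9.94 and 9.78 in P14 mice, against 9.68, 9.77, 9.63, 9.45 and 9.54 in P6 mice. Those ages did not overlap either, but the step of 0.25 did not pass (adjusted p 0.0772). Its P0 values were 9.68, 9.49, 9.66, 9.38 and 9.39. Among 9 measured enzymes of glutamate, GABA and glutamine, 1 was higher at P6 than at P0 and 0 lower, beside 6.42% and 7.95% of all probe sets. At P14 against P6, 1 was higher and 2 lower, beside 15.7% and 5.14%. Got1, the glutamate-aspartate transaminase, rose by 0.63 ± 0.16 and 0.66 ± 0.17.

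Slc38a9 encodes the lysosomal arginine sensor that acts on the growth kinase complex mTORC1. It had 7.76, 7.54, 8.01 and 8.14 in P14 mice, against 7.05, 6.69, 6.87, 6.42 and 6.98 in P6 mice, 1.06 ± 0.21 higher (2.09-fold, adjusted p 0.000338). The P0 mice were split, with 7.37 and 7.36 in litters 1 and 3 and 6.54, 6.47 and 6.57 in the others. All P14 mice were above all P0 mice too. Of 13 measured genes of mTORC1 and lysosomal sensing, Slc38a9 included, 5 were higher at P14 than at P6 and 1 lower, beside 15.7% and 5.14% of all probe sets, with a median of 0.32 beside 0.05. Rragc, Flcn and Slc15a4 rose by 0.87, 0.80 and 0.58, and Rragd fell by 1.10. Between P6 and P0, 0 were higher and 1 lower, beside 6.42% and 7.95% of all probe sets.

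The other Slc7 and Slc3 genes carry cationic and large neutral amino acids. Slc7a2, a carrier of arginine and lysine, had 7.82, 7.60, 7.68 and 7.80 in P14 mice, against 6.85, 6.72, 6.63, 6.23 and 6.68 in P6 mice. The gap was 1.10 ± 0.16 (2.15-fold, adjusted p 3.93e-06). P0 mice had 5.98, 6.02, 5.91, 5.50 and 6.53, and the P6 level was 0.63 ± 0.15 higher (1.55-fold, adjusted p 0.00333), with overlap at the highest P0 mouse. Slc7a14, a protein of lysosomes, had 7.61, 7.31, 7.49 and 7.47 in P14 mice, against 6.84, 6.71, 6.84, 6.11 and 6.69 in P6 mice. It was 0.83 ± 0.16 higher at P14 (1.78-fold, adjusted p 0.000289) and had 6.60, 6.63, 6.76, 6.42 and 6.15 at P0.

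Slc7a5, a carrier of large neutral amino acids, pairs with the heavy chain Slc3a2. The light chain was called between P6 and P0, and the heavy chain between P14 and P6. Neither passed limma's F test over ages (adjusted p 0.111 for Slc7a5 and 0.0549 for Slc3a2). Leaving out 1 mouse brought Slc7a5 past it in 0 of 33 fits. Slc3a2 passed in 8 of 33, among them the fit without the P6 mouse of litter 4 (0.0209). Slc7a5 had 8.10, 8.15, 8.09, 7.48 and 7.86 in P6 mice, against 8.08, 8.32, 8.70, 8.48 and 8.34 in P0 mice. It was lower at P6 by 0.45 on the log2 scale, with overlap (SE 0.13, adjusted p 0.0186). The call was lost without the P6 mouse of litter 4 (0.0851) and without P0 litter 3 (0.0706). Its P14 values were 8.12, 8.09, 8.09 and 7.78. Slc3a2 had 8.14, 8.11, 8.22 and 7.97 in P14 mice, against 7.83, 7.77, 7.66, 7.08 and 7.73 in P6 mice, with no overlap. P14 minus P6 was 0.50 ± 0.14 (adjusted p 0.00728), and 0.0724 after quantile normalization. P0 mice had 7.91, 7.77, 7.99, 7.79 and 7.53.

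Slc7a11 exchanges cystine for glutamate. It had 5.90, 5.89, 6.37, 5.55 and 4.88 in P0 mice, 5.76, 5.65, 5.68, 4.48 and 5.74 in P6 mice and 5.99, 5.86, 6.01 and 6.34 in P14 mice. P14 lay wholly above P6, but the difference of 0.59 did not pass (adjusted p 0.208), and the P6 mouse of litter 4 was far below the others. In the list of 13 measured genes of the amino acid response that ATF4 drives, 2 were higher at P6 than at P0, 3 were higher at P14 than at P6, and 0 were lower in either comparison. Those shares stand beside 6.42% and 15.7% of all probe sets called higher, and the list's medians of 0.03 and 0.13 beside -0.01 and 0.05. The genes called were Ddit4 and Nupr1, then Cebpg, Wars and Atf3, by 0.36, 0.46, 1.00, 0.79 and 0.72.

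In the glutamate carriers of the Slc1 family, calls depended on the P6 mouse of litter 4 and on the scaling. Slc1a3, the glutamate carrier of astrocytes, had 9.13, 9.05, 9.58, 9.08 and 9.11 in P0 mice, 9.51, 9.49, 9.35, 8.29 and 9.24 in P6 mice and 9.02, 8.55, 8.68 and 8.82 in P14 mice. Apart from litter 4, the P6 mice were above all P14 mice. P14 minus P6 was -0.41 and did not pass, and was -0.63 without the P6 mouse of litter 4 (adjusted p 0.0233). With all mice kept it passed after quantile normalization (0.00281) and after centring (0.0494). Its F test passed at 0.0385, and no longer when any of 15 of the 33 mice was left out (up to 0.125). Slc1a1, the neuronal glutamate and cysteine carrier, had 8.38, 8.39, 8.28, 7.67 and 8.25 in P6 mice, against 7.96, 7.64, 8.13, 7.59 and 7.68 in P0 mice. P6 minus P0 was 0.39 (adjusted p 0.0822), and 0.52 without the P6 mouse of litter 4 (0.0129); it also passed without P0 litter 3 (0.039), after quantile normalization (0.00572) and after centring (0.0469). At P14 it had 8.02, 7.47, 7.67 and 8.09, and P14 minus P6 was -0.38, which did not pass, and -0.51 without that mouse (0.016); it passed after quantile normalization (0.000231) and centring (0.0113) with all mice kept. For Slc1a6, P14 minus P6 was -0.43 (0.0637), and it passed without that mouse (-0.52, 0.0295), without P6 litter 2 (0.0438) and after centring (0.00565).

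Smaller rises to P14 came from genes near or under the median level. Slc43a2, a carrier of branched-chain amino acids, averaged 5.40 at P14 and 4.74 at P6 (0.65 ± 0.15, adjusted p 0.00151). Slc6a20a, a proline carrier, averaged 5.62 and 5.00 (0.62 ± 0.12, adjusted p 0.000148), and shares a close paralog, Slc6a20b, beside it, so probes may hybridize to both. Slc6a13, a GABA and taurine carrier of the meninges and vessels, averaged 4.60 and 4.22 (0.38 ± 0.08, adjusted p 0.0012). Another 6 genes passed the F test alone and neither comparison: Slc1a5, Slc1a6, Slc36a1, Slc38a5, Slc6a7 and Slc7a4, besides Slc1a3 and Slc38a1 above. Slc36a1, a lysosomal proton-coupled carrier, was highest at P14 (6.63, adjusted p 0.035), and its call was lost without P14 litter 1 (0.205), 3 (0.0698) or 5 (0.0712). By the F test, Slc1a5 lost its call without P14 litter 1 (0.113) or 2 (0.09), and Slc38a5 without any of 8 mice (up to 0.161). Slc6a13 no longer passed the F test without P14 litter 3 (0.06). Its call in P14 against P6 held in all 16 alternative settings. For Slc38a5, P6 minus P0 was 0.39 (0.0606), and it passed after quantile normalization (0.0288), after centring (0.0445), with array weights (0.0257), without the 3 low-weight arrays (0.0487), with dim probe sets dropped (0.0495), and without P0 litter 3 (0.021) or P6 litter 2 (0.0473).

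The remaining 35 genes passed no test over ages or in either comparison. Their age means spanned 0.03 to 0.75, and 23 of them lay under the median level. Leaving out 1 mouse brought 3 of them past the F test, Slc1a1 (0.0352 without P6 litter 4), Slc6a6 (0.0468 without P0 litter 4) and Slc7a7 (0.039 without P1 litter 1). The monoamine carriers were among them. Slc6a4, the serotonin carrier, had 4.47, 4.00, 3.97, 4.09 and 4.02 in P0 mice, 5.23, 3.91, 4.15, 4.18 and 4.09 in P6 mice and 3.94, 4.00, 4.05 and 4.08 in P14 mice. The 3 highest of the 33 mice were the litter 1 mice of P6, of P4 (4.80) and of P0. The litter 1 mice of P1, P2, P3 and P14 had 3.96, 4.04, 4.05 and 3.94. Among the brighter genes, the taurine carrier Slc6a6 had age means between 8.97 and 9.27, and the F test gave an adjusted p of 0.135.

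Markers of other cells moved over the same intervals. The mean over 15 astrocyte genes was 6.94 at P0 (mice 6.83 to 7.20), 7.58 at P6 (7.36 to 7.75) and 8.38 at P14 (8.22 to 8.55), with 10 of 15 higher at P6 than at P0, and 9 higher and 2 lower at P14 than at P6. The mean over 12 myelin genes was 4.44 at P0, 7.29 at P6 (6.99 to 7.71) and 10.22 at P14 (10.07 to 10.32). Of 14 endothelial genes 10 were higher at P14 than at P6 (mean 6.28 against 5.47), as were 7 of 10 pericyte and smooth muscle genes, 10 of 12 microglial genes and 4 of 11 meningeal genes (1 lower). Immature neuron genes fell, 8 of 8 between P6 and P0 and 7 of 8 between P14 and P6. All these counts stand beside 6.42% higher and 7.95% lower of all probe sets at P6 against P0. At P14 against P6 the shares were 15.7% and 5.14%. Of 6 ependymal and choroid plexus genes and 2 erythroid genes, 0 passed in either comparison by limma. The part of these shifts in the results for the transporter genes was not tested.

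**Figure D4:**
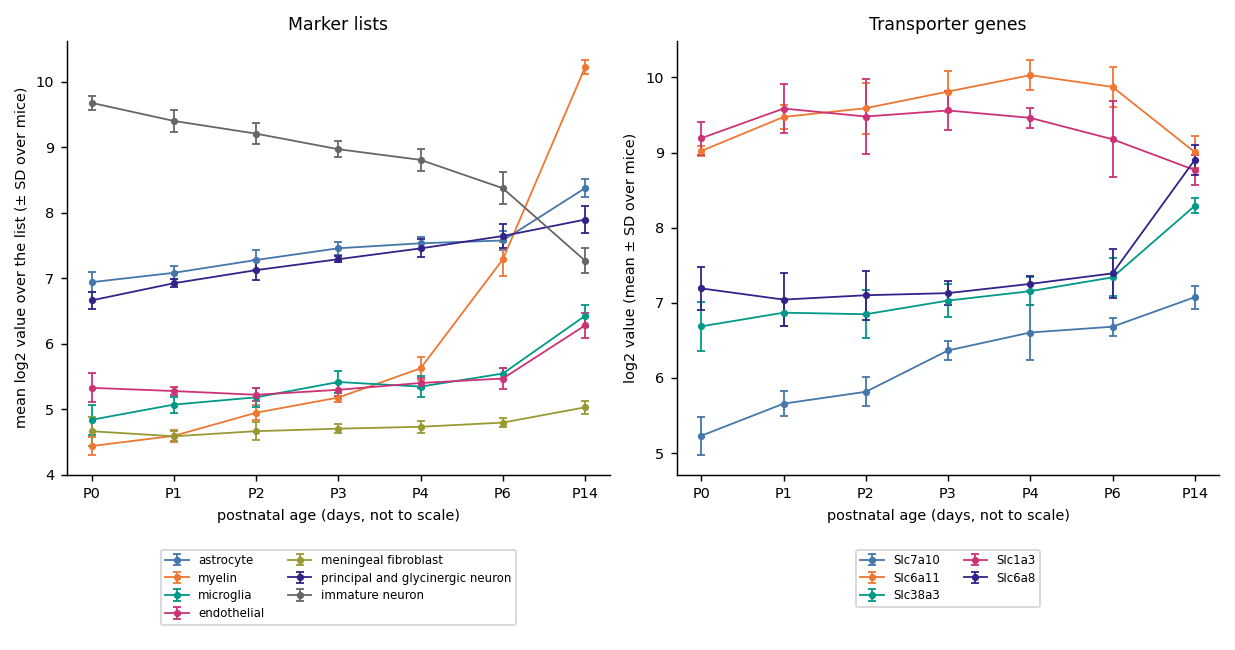
Mean log2 value over each marker list by age on the left (± SD over mice), and mean log2 value of 5 transporter genes by age on the right (± SD), with heights of different lines not comparable. The astrocyte and myelin lists rise to P14 while the immature neuron list falls, and from P6 to P14 the Slc6a11 line goes down while the Slc6a8 and Slc38a3 lines go up.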

How the data were processed

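MNTB tissue of 33 single mice was measured on arrays; the labels call the animals FVB while their strain tag reads FVN. RNA was amplified from small amounts before labelling, which can add variation between arrays, per the labels' protocols. The authors deposited log2 values for 16686 probe sets, made with Partek 6.3 and RMA on mm9, per the submitters' processing notes; the RMA settings are not given there. Depth is given by no count, so the number of mice limits the precision, and normalization takes most genes as stable. The platform annotation gives 1 symbol to 14993 probe sets, several to 1019 and none to 674. Each of the 59 genes had 1 probe set and matched RefSeq by Entrez number.

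Values were fitted as deposited with limma 3.58.1 in R 4.3.3: 1 mean per age over all 33 arrays, an F test over ages and 7 contrasts, adjusted by Benjamini-Hochberg across every probe set tested and a threshold of 0.05. "Called" means past it. Errors of differences are standard errors from that fit. Labels say that mice came from numbered litters, and p-values measure the spread between these mice. The scripts were checked on simulated data. Genes with values in every mouse were the up to 8 largest called changes in P6 against P0 and in P14 against P6, and a fixed set of well-known carriers. The 6 pathway lists and 11 marker lists, like the members, were chosen with earlier results of these data known. Marker lists overlap: Pdgfra stands in the precursor and meningeal lists, and Slc6a5, Slc32a1, Gad1 and Gad2 in the neuron list and a pathway list. Alternatives were quantile normalization, median centring, array weights, leaving out the 3 arrays of lowest weight, dropping dim probe sets, fitting only the ages compared, a litter block, eBayes with trend and robust settings, and leaving out each mouse.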

Additional observations from a re-analysis of the deposited data

Results flagged for a closer look

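In groups of 4 or 5 mice, 1 mouse was set apart by Dixon's test in 21 of 147 gene and age groups of the named genes, where chance gives about 1 in 20. The 3 arrays with the lowest quality weights held 13 of the 21, always as the lowest mouse. The P6 mouse of litter 4 was lowest 8 times, with 7.67 for Slc1a1, 8.29 for Slc1a3, 8.37 for Slc38a2, 7.08 for Slc3a2, 5.67 for Slc6a17, 7.75 for Slc6a9, 4.48 for Slc7a11 and 6.11 for Slc7a14. The P1 mouse of litter 4 was lowest 4 times, with 9.19 for Slc38a1, 8.16 for Slc38a2, 6.56 for Slc38a3 and 6.42 for Slc6a8, and the P2 mouse of litter 4 had 8.61 for Slc1a3.

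The other 8 lay elsewhere. Slc7a10 was highest in litter 3 at P2 (6.15, others 5.66 to 5.79) and in litter 3 at P4 (7.15, others 6.39 to 6.45). Slc1a1 was highest in litter 2 at P3 (8.33, others 7.55 to 7.73), and Slc1a3 in litter 3 at P0 (9.58, others 9.05 to 9.13). The P14 mouse of litter 5 was lowest for Slc6a11 (8.70, others 9.07 to 9.14) and for Slc7a5 (7.78, others 8.09 to 8.12). Slc6a4 was highest in litter 1 at P6 (5.23, others 3.91 to 4.18) and at P0 (4.47, others 3.97 to 4.09).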

How the results depend on the processing

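Over the alternatives run, no called difference of a named gene changed sign. The medians of the 59 genes, all near 0, did in some settings (P14 against P6, -0.083 to 0.255; P6 against P0, -0.027 to 0.055), and so did some differences that passed in no setting (such as Slc7a5 at P14 against P6, -0.13 to 0.16, and Slc1a3 at P6 against P0, -0.10 to 0.21). In all, 56 values of the main comparisons moved and 463 stayed within their limits, and of the values for single genes 1481 kept their side of the threshold, 37 gained a call and 48 lost one. In P6 against P0 the calls of Slc7a10, Slc6a17, Slc6a11, Slc38a3, Slc7a2 and Slc1a4 held in every setting run, and in P14 against P6 those of Slc6a8, Slc7a2, Slc38a9, Slc6a9, Slc38a3, Slc38a2, Slc7a14, Slc43a2, Slc6a20a, Slc6a13, Slc6a11 and Slc6a17 (Slc43a2 and Slc6a13 give no value with dim probe sets dropped). Genes called lower at P6 than at P0 numbered 2, and 4 after quantile normalization, 1 without the 3 low-weight arrays and 1 in the fit of only the ages compared, in which 859 probe sets were called lower (1327 as deposited); leaving out 1 mouse gave 1 to 4. In that fit Slc6a9 (0.126) and Slc7a5 (0.0958) were lost. Genes called lower at P14 than at P6 numbered 3, and 5 after quantile normalization, 7 after centring, 6 with array weights and 6 without the 3 arrays; leaving out 1 mouse gave 2 to 6. Probe sets called lower at P14 numbered 858, and 1740 after quantile normalization and 1441 after centring. For the other settings of both comparisons, counts of all probe sets called lower are not given here. The gene counts in those settings therefore show nothing particular to the transporter genes. The median change of the 59 genes at P14 against P6, 0.03, was -0.083 after centring and 0.26 with dim probe sets dropped, and that of P4 against P3 was then 0.12. Probe sets called in P1 against P0 were 34, and 82 after quantile normalization, 67 after centring, 150 with weights, 94 without the 3 arrays and 1 in the fit of only these ages; leaving out 1 mouse gave 14 to 113. In P2 against P1 they were 3, and 15, 10, 15 and 0 by quantile normalization, centring, weights and only these ages. In P3 against P2 they were 4, and 10, 7, 7 and 0 by quantile normalization, centring, without the 3 arrays and only these ages, with 2 to 7 leaving out 1 mouse. In P4 against P3 they were 2, and 0 with only these ages, with 1 to 2 leaving out 1 mouse. In P6 against P4 they were 80, and 169, 158 and 28 by quantile normalization, weights and only these ages, with 52 to 107 leaving out 1 mouse. The cause of these differences was not tested. A mean over several probe sets of a gene was not run, since no member had more than 1. The number of mice and the brightness of a probe set limit what can be resolved.

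Litter numbers recur at each age, but in no comparison did every same-numbered pair correlate above 0.1 (P6 against P0, -0.21 to 0.16, and P14 against P6, -0.12 to 0.18). The main fit leaves the numbers out. The labels do not say whether equal numbers mark the same litter, and these correlations cannot settle it. Same-numbered mice went together more in the first days: in P1 against P0, 4 of 5 pairs were above 0.1 and 4 of 5 correlated best with their own number, and in P2 against P1 the highest was 0.512. The 3 arrays of lowest weight were all of litter 4. With the replicate block, 4 genes were called lower at P6 than at P0 and 6 lower at P14 than at P6. Among the latter were Slc1a1 (0.0311), Slc1a3 (0.0131) and Slc1a6 (0.016). Slc38a5 was called higher at P6 against P0 (0.0354). The shares of all probe sets called lower with the block are not given here, so these counts show nothing particular to the transporter genes. With the block, 63, 9 and 9 probe sets were called in P1 against P0, P2 against P1 and P3 against P2, and 1 transporter gene in P3 against P2.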

Other observations

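Genes of monoamine synthesis and storage, which share their pathway with the serotonin carrier Slc6a4, were measured for 9 of 10 list members, 7 of them under the median level. At P6 against P0, 2 were higher and 0 lower (median 0.07), and at P14 against P6, 3 were higher and 0 lower (median 0.12). Beside these stand 6.42% higher and 7.95% lower of all probe sets at P6 against P0 (median -0.01). At P14 against P6 they were 15.7% and 5.14% (median 0.05). Ddc, the decarboxylase of serotonin and dopamine synthesis, averaged 6.88 at P6 and 4.80 at P0, higher by 2.08 ± 0.15 (limma adjusted p 1.23e-11), and rose by a further 0.75 ± 0.16 to 7.63 at P14 (0.000781). Maob, which degrades monoamines in glia and serotonin neurons, rose by 0.61 ± 0.17 and 0.99 ± 0.18. In the P6 mouse of litter 1, where Slc6a4 was 5.23, Tph2 was also the highest of its age (3.48, median 3.10), as was Ddc (7.19, median 6.78), while Slc18a2, Maoa and Maob were highest in other P6 mice. In the P0 mouse of litter 1, Ddc was the highest of its age and Tph2 was not. In the P4 mouse of litter 1, Tph2 (3.32, median 3.10) and Slc18a2 (5.23, median 4.83) were the highest of their age. Ddc, Maoa and Maob were highest in other P4 mice. Tph2 lay between 3.01 and 3.48 in all mice, under the lower quartile of every array (3.85 to 4.03). Its differences are therefore near the floor of the arrays and carry little weight.

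A list of 9 other transmitter carriers holds the glycine carrier Slc6a5 that the 59 genes leave out. Between P6 and P0, 3 of the 9 were higher and 1 lower (median 0.10), beside 6.42% and 7.95% of all probe sets (median -0.01). Between P14 and P6, 3 were higher and 0 lower (median 0.38), beside 15.7% and 5.14% (median 0.05). Slc12a2, the chloride importer of immature neurons and glia, rose by 1.16 and 1.48 (1.47e-05 and 4.15e-07). Slc17a8, a vesicular glutamate carrier, fell by 3.79 between P6 and P0 (4.4e-14).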
